A study of Mus musculus with 35 samples.

Results

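Cholesterol and fatty acid synthesis genes were followed through the transcriptomes of 35 single mouse embryonic fibroblasts. The set held 31 genes chosen by symbol: 18 enzymes of cholesterol synthesis, 5 regulators of the sterol response (Insig1, Insig2, Srebf1, Srebf2 and Scap), the sterol carrier Stard4 and 7 enzymes of fatty acid synthesis and desaturation. All 31 were among the 19085 genes of the count table. A gene was treated as measured when it reached 5 CPM (gene reads scaled to a fixed library total) over all cells together and had at least 5 reads in at least 5 cells. By this filter 30 of the 31 genes were measured, against 8390 of all genes. The exception was Acaca, the acetyl-CoA carboxylase that commits carbon to fatty acids.

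The fibroblasts (MEFs, connective tissue cells cultured from embryos) were of the C57Bl/6J strain, kept at 3% oxygen, and all had received 1 Gy of ionising radiation. Re-seeding onto membrane dishes followed 32 h after irradiation, and at 48 h the cells were stained with the DNA dye PicoGreen and captured singly by laser. Their polyadenylated RNA was read by Smart-seq2, a full-length method without molecular identifiers. Of the cells, 21 held micronuclei, which are small chromatin bodies apart from the main nucleus, and 14 had none. No unirradiated cells were analysed here, so the values compare irradiated cells that differ in micronuclei. No culture, embryo or animal is named for any cell. Each group therefore counts as 1 sample, and no p-value is given.

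Cells make cholesterol from acetyl-CoA through mevalonate, isoprenoid diphosphates, squalene and lanosterol, and fatty acids from the same precursor through malonyl-CoA. Many of the enzymes are switched on together by the transcription factors SREBP1 and SREBP2, the products of Srebf1 and Srebf2, which the escort protein SCAP carries from the endoplasmic reticulum to the Golgi when membrane sterol is low. INSIG proteins hold SCAP back when sterol is plentiful, and Insig1 is itself an SREBP target. In promoters, SREBPs are known to act beside factors that bind CCAAT sequences (NF-Y) and GC boxes (Sp1).

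The promoters of these genes are shown first because the genes are known to share their regulation. RefSeq promoter sequences (GRCm38.p6) were matched by symbol for 24 of the 31 genes, and the 250 bases before each transcription start were searched on both strands for 4 sets of letters. These were TCACNCCAC, a form of the sterol regulatory element, then CCAAT as bound by NF-Y, then GGGCGG as the GC box, and finally CACGTG as the E-box. In the sequences below, written 5′ to 3′ along the gene, capitals mark matches on either strand, so that a CCAAT match on the other strand appears as ATTGG, and a GC box on the other strand appears as CCGCCC. They belong to Hmgcs1, the synthase that feeds the mevalonate pathway (chr13:119690101-119690350, plus strand), Insig1 (chr5:28071162-28071411, plus strand), the lanosterol demethylase gene Cyp51 (chr5:4104698-4104947, minus strand), the sterol ketoreductase gene Hsd17b7 (chr1:169969206-169969455, minus strand) and the fatty acid synthase gene Fasn (chr11:120824548-120824797, minus strand). Hmgcs1 and Insig1, and Cyp51 and Hsd17b7, were among the most closely correlated gene pairs across cells, and Fasn among the genes least related to the sterol enzymes.
Hmgcs1: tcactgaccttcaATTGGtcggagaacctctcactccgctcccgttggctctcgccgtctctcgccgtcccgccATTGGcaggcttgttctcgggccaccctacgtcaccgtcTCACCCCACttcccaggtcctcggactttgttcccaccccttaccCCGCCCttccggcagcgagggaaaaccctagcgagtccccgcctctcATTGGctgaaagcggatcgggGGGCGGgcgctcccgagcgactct
Insig1: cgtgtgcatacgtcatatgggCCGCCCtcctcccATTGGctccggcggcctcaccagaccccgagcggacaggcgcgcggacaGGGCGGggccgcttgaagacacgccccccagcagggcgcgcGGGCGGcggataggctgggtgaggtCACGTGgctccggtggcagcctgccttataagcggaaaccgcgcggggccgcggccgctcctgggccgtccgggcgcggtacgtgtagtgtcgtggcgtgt
Cyp51: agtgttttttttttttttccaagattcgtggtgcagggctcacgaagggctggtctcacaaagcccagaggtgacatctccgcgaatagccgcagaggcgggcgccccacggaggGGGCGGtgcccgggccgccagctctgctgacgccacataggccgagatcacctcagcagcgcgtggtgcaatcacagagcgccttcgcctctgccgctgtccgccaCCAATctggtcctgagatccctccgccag
Hsd17b7: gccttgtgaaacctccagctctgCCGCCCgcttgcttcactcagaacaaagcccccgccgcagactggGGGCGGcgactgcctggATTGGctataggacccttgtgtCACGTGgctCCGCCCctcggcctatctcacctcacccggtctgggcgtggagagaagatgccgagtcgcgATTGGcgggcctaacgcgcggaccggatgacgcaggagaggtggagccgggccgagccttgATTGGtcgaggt
Fasn: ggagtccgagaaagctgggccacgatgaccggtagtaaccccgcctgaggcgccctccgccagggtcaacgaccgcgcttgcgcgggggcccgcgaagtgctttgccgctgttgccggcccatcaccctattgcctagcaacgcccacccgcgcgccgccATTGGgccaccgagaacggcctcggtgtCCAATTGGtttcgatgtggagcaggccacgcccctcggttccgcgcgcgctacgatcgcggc

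CCAAT was common in these promoters. It occurred in 19 of the 24 promoter sets (79.2%), with at least 2 matches in 45.8%, against 40.7% and 15.5% of 6467 other measured genes. Among the sterol enzymes 14 of 15 held it, the exception being Acat2. Of the fatty acid enzymes 1 of 4 did, namely Fasn, where 2 of its 3 matches overlap each other. Scd1, Scd2 and Fads1 had no promoter sequence, so the 4 are only part of this role. The only Acaca window (chr11:84195188-84195437) lies inside the annotated gene, which starts at base 84129672. GGGCGG was found in 87.5% of the 24 against 68.6% of the other measured genes, and CACGTG in 20.8% (Dhcr7, Hsd17b7, Insig1, Sc5d and Scap) against 10.6%. TCACNCCAC was found once, 137 bases before the start of Hmgcs1, and in 1.19% of the other measured genes. These are matches of letters in a fixed window, and some genes have more than 1 start in the table, so they describe the sequences and not binding.

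Over all cells the 30 measured genes differed widely in level. Read counts grow with transcript length, so levels are compared between genes per kilobase of exon. The length used merges all annotated exons of a gene and can exceed that of any 1 transcript. Genes with many annotated exon forms may therefore be understated in every comparison per kilobase. Insig1 stood highest at 106.0 CPM per kilobase, followed by the methylsterol oxidase gene Msmo1 at 56.0 and the sterol isomerase gene Ebp at 45.4. The desaturase gene Scd2 (43.9), Hmgcs1 (40.9) and the citrate lyase gene Acly (39.7) came next, with steps between these neighbours that are far smaller than the spread between cells. The lowest levels per kilobase among the 30 were those of the isoprenoid isomerase gene Idi1 (1.57), Srebf2 (2.56) and the last reductase of cholesterol synthesis, Dhcr7 (3.33), and Acaca, outside the filter, had 0.256. Together the 31 genes took from 0.107% to 0.652% of the reads of a cell.

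**Figure D1:**
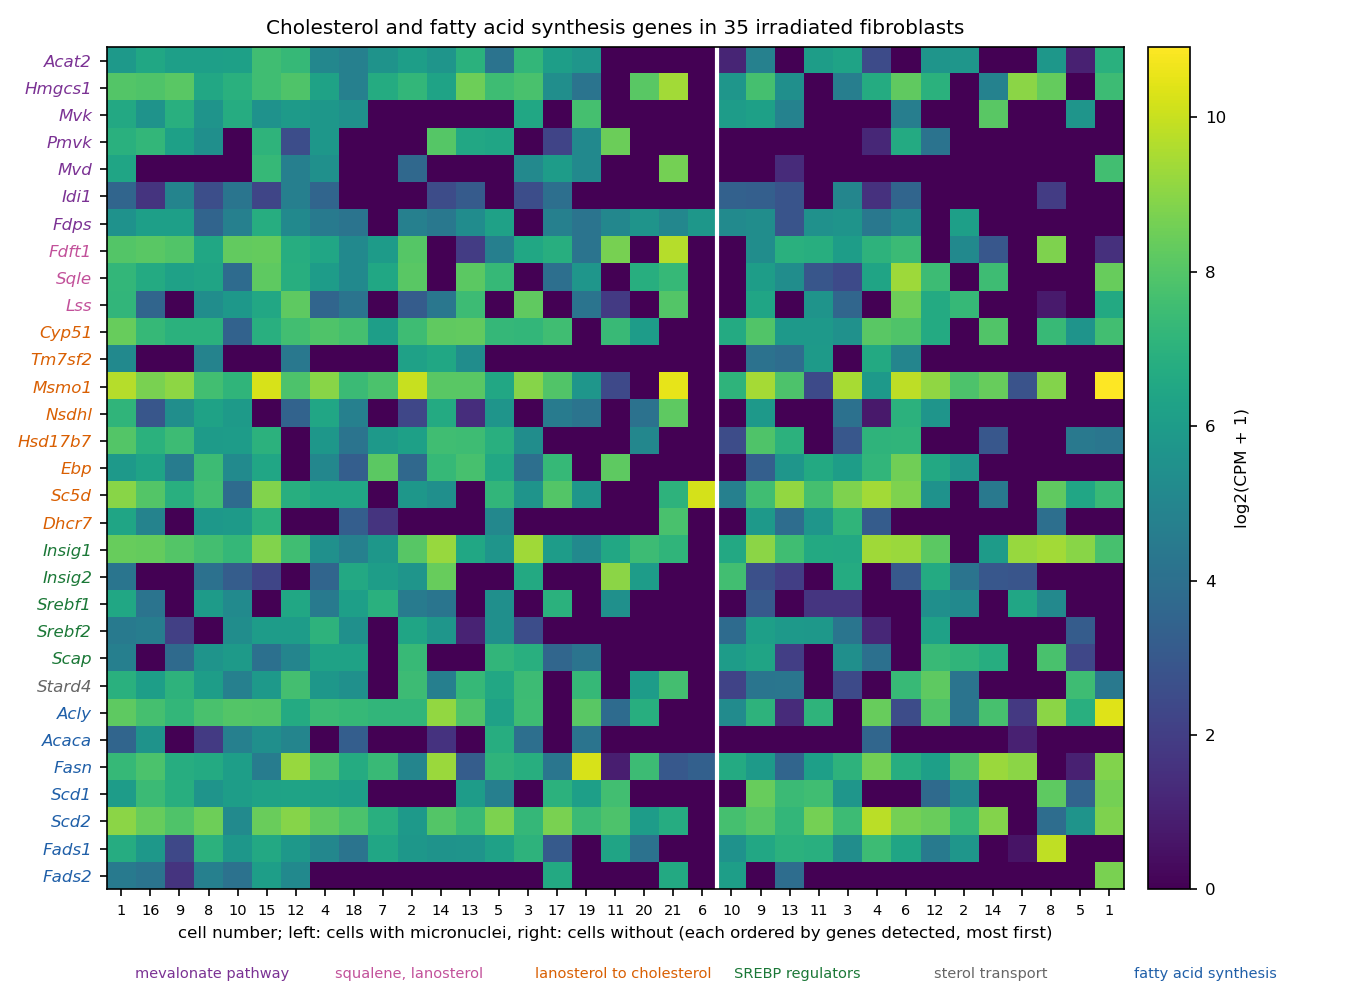
Level of each of the 31 genes (rows, grouped and coloured by role) in each of the 35 cells (columns, cell number on the horizontal axis), as log2(CPM + 1) on the colour scale. Msmo1, Insig1 and Scd2 are bright in most cells of both groups, while Mvd, Tm7sf2 and Fads2 are at 0 in many, and micronucleated cell 6 and non-micronucleated cell 7 are dark for most sterol enzymes.

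Single cells were uneven, and so were the libraries. Spike-ins took a median of 0.86% of reads (range 0.15% to 6.98%) with and 2.25% (range 0.33% to 7.39%) without micronuclei. Reads on genes ran from 57514 to 1794113 (median 281800) in micronucleated cells and from 56766 to 2023111 (median 736715) in the others, and genes detected had medians of 6812 and 6082. The 9 fibroblast markers were measured and summed to 4189 to 22977 CPM per micronucleated cell and 6509 to 21590 CPM per other cell, with at least 5 reads of Col1a1, Vim and Sparc in all 35 cells. The receptor genes Pdgfra and Pdgfrb had 5 reads in 8 and 13 of the 35. Of 9 listed adipocyte markers none was measured, and their sum had a median of 0 CPM in both groups. At least 2 macrophage markers had 5 reads or more in 4 micronucleated cells and in no cell of the other group. Of the 4, cell 10 held all 8 markers at a sum of 15545 CPM, above its fibroblast sum of 10081 CPM. Results without these 4 cells are given with the group medians. Micronucleated cell 6 was not among them, since only 1 macrophage marker reached 5 reads there. Its macrophage sum was nevertheless 1452 CPM, beside a fibroblast sum of 4189 CPM.

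Summed over the 18 sterol enzymes, the level per cell spanned 206 to 4462 CPM, a 21.7-fold range. Micronucleated cells ran from 553 to 4462 CPM with a median of 1453 (SD 1018), and cells without micronuclei from 206 to 3893 CPM with a median of 1309 (SD 1059). The groups overlapped over nearly their whole range, with 1 micronucleated cell above all others and 3 cells without micronuclei below the lowest micronucleated cell. The difference of 144 CPM between the medians was far smaller than the SD of either group. The summed fatty acid enzymes ran from 9.08 to 1739 CPM (median 617) in micronucleated cells and from 177 to 3062 CPM (median 637) in the others, and 3 non-micronucleated cells lay above every micronucleated cell.

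Msmo1 led the sum in each of the 5 highest cells, with other enzymes behind it that varied from cell to cell. Micronucleated cell 21, the highest at 4462 CPM, carried Msmo1 at 1472 CPM, the squalene synthase gene Fdft1 at 828 and Hmgcs1 at 667, with 3097 genes detected in all. Non-micronucleated cell 6 reached 3893 CPM, with Msmo1 at 902 CPM, and held the highest levels in its group of the squalene epoxidase gene Sqle (631 CPM), Ebp (373) and the lanosterol synthase gene Lss (365). Micronucleated cell 1 combined a sum of 3449 CPM, of which Msmo1 gave 837.5 and Sc5d 496.8, with the most complete pathway, 17 of 18 sterol enzymes at 5 reads or more. Msmo1 had the largest CPM of the sterol enzymes over all cells (343.8), so its lead in cells ranked by this sum was partly set in advance. It also led in cells with low sums, such as non-micronucleated cells 10 (136 of 430 CPM) and 2 (229 of 599 CPM). Its lead was thus not particular to the highest cells, and the enzymes that followed it there differed.

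At the other end stood cells with long gaps in the pathway. Non-micronucleated cell 7, the deepest library at 2023111 reads, had 2 of the 18 sterol enzymes at 5 reads or more, although Hmgcs1 (515 CPM), Insig1 (604.5), Fasn (514) and Srebf1 (87.5) were high in it. Micronucleated cell 6, with 2391 genes detected the poorest library, had reads on 3 of the 31 genes, yet the desaturase gene Sc5d stood there at 1167 CPM, its highest value in any cell. Non-micronucleated cell 5 had the lowest sterol sum, 206 CPM, at 990546 reads.

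**Figure D2:**
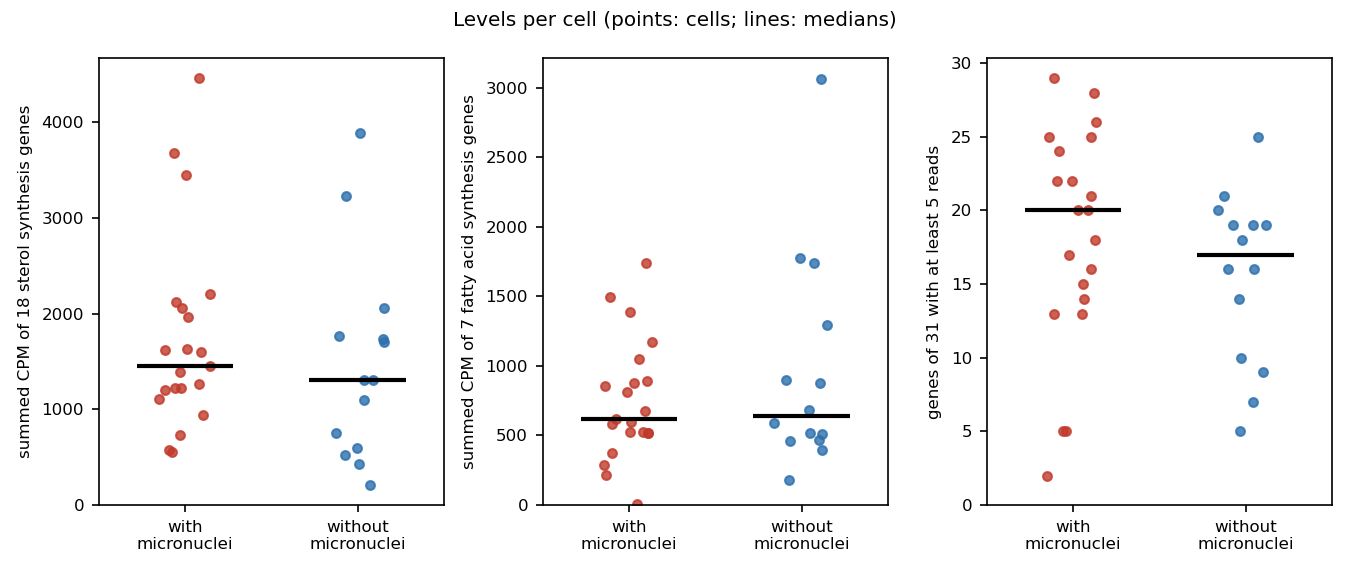
Summed CPM of the 18 sterol enzymes (left), summed CPM of the 7 fatty acid enzymes (middle) and number of the 31 genes with at least 5 reads (right), with 1 point per cell and a line at the group median. Both groups overlap in every panel; the medians are 1453 and 1309 CPM, 617 and 637 CPM, and 20 and 17 genes in cells with and without micronuclei.

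Detection of the 31 genes differed a little between the groups. Micronucleated cells held 5 reads or more of 2 to 29 genes (median 20, SD 7.56) and the others of 5 to 25 genes (median 17, SD 5.83), so the medians differed by less than either SD. With every library reduced at random to 119337 reads (17 and 13 cells deep enough), the medians were 17 (range 2 to 24) and 13 (range 4 to 21). Genes detected over the whole transcriptome also differed after thinning, at medians of 5825 and 5285, and the part of this in the count of members was not tested.

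To compare the groups gene by gene, reads were summed over the cells of each group. The log2 ratio is that of CPM + 1 in micronucleated over other cells, so low genes are understated. Of the 30 measured genes 20 were higher and 10 lower in micronucleated cells, where 56.0% of all measured genes were higher and 44.0% lower. At least 2-fold higher were 8 of 30 (Acat2, Pmvk, Mvd, Nsdhl, Hsd17b7, Ebp, Insig2 and Stard4), beside 22.9% of all measured genes, and at least 2-fold lower were 4 (Sc5d, Scap, Fads1 and Fads2), beside 14.7%. Over all 30 genes the shares past 2-fold lie near those of the transcriptome and say nothing of the set as a whole. The roles within it are therefore given apart.

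Sterol enzymes were mostly higher and fatty acid enzymes lower in summed reads. Of the 18 sterol enzymes 16 were higher, with a median log2 ratio of 0.59, against 0.15 over all measured genes. With every cell given equal weight, 14 of the 18 were higher (52.8% of all measured genes; 47.2% lower), and the median was 0.35 against 0.05. After thinning, 13 of 17 were higher (53.3% of all measured genes), and without micronucleated cell 13 it was 13 of 18 (54.8%). Removing 6 libraries of lower quality (fewer than 4000 genes, or more than 9% of reads mitochondrial) gave 14 of 18 higher (56.3%). Of the 6 measured fatty acid enzymes none was higher, and their median was -0.55, or -0.60 at equal weight. Without the same 6 cells 2 of 6 were higher and 4 lower, beside 56.3% of all measured genes higher. In the mean of log2(CPM + 1) over cells, where zeros weigh most, all 6 were instead higher, with a median of 0.09, beside 63.9% of all measured genes. The sterol median in that measure was 1.07 against 0.30 over all measured genes. Leaving out the 4 cells with macrophage markers gave 15 of 18 sterol enzymes higher, beside 55% of all measured genes. The medians were then 0.55 for the sterol and -0.55 for the fatty acid enzymes.

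**Figure D3:**
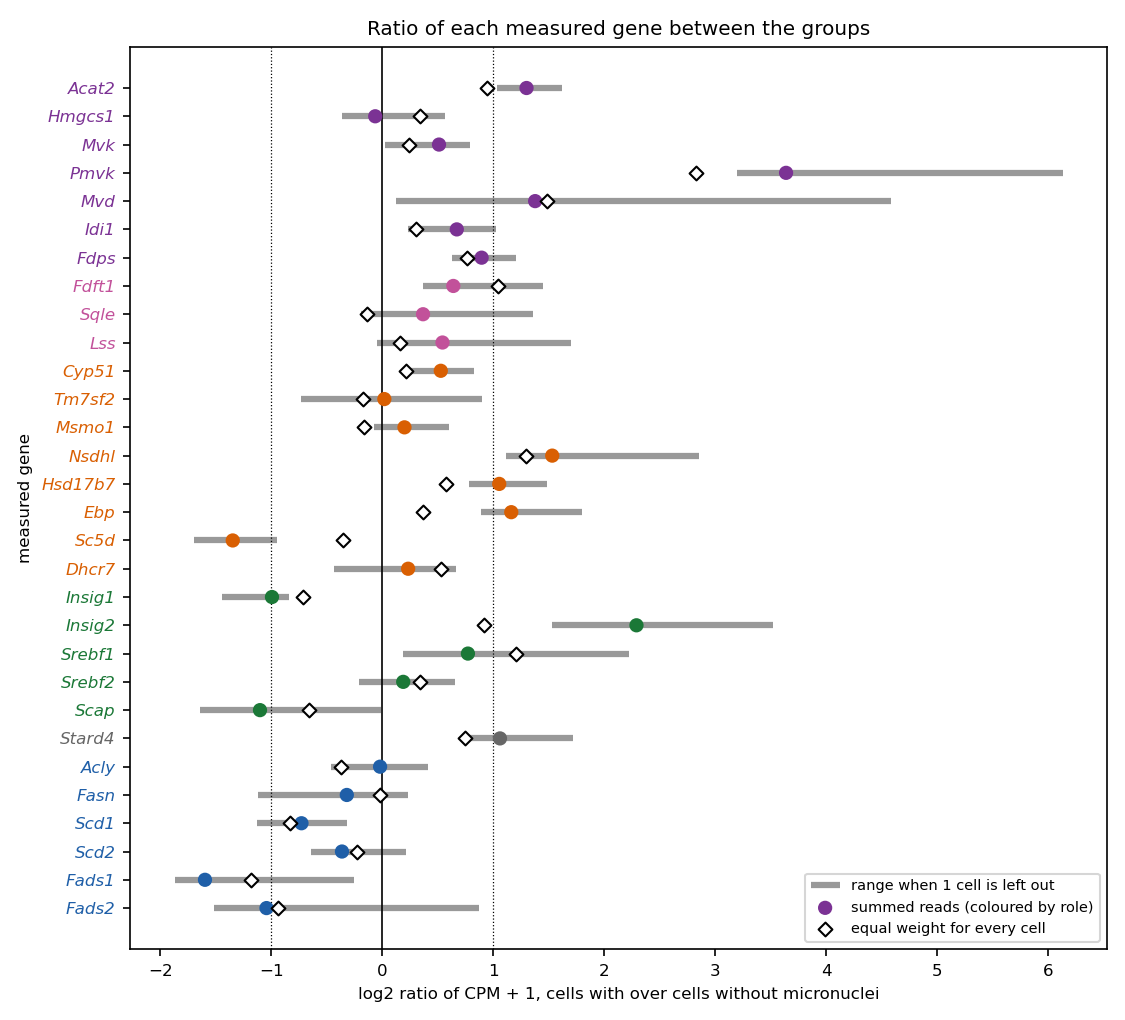
Log2 ratio of CPM + 1 in micronucleated over other cells for the 30 measured genes: filled points from summed reads, open diamonds from mean CPM per cell, grey bars the range when any 1 cell is left out, dotted lines at a 2-fold difference. Pmvk stands farthest to the right at 3.64, the 6 fatty acid enzymes at the bottom are all at or left of 0, and the bars of Mvd, Fads1 and Fads2 are long.

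A stricter reading asks for 1 direction in summed reads, at equal weight and without each of the 35 cells in turn. By it 14 of the 30 genes were higher (33.5% of all measured genes) and 5 were lower, namely Sc5d, Insig1, Scap, Scd1 and Fads1 (20.1%). The sterol enzymes gave 11 of the 14, with Sc5d alone lower. Intervals in what follows are exact Poisson 95% intervals of summed reads, which cover counting error only and not the difference between cells.

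In the mevalonate pathway 6 of 7 genes were higher in sum, beside 56.0% of all measured genes. The median log2 ratio of the 7 was 0.89, beside 0.15. Pmvk, the phosphomevalonate kinase gene (chr3:89454541-89469013, plus strand, GRCm38), differed most of all 30 genes. In micronucleated cells it ran from 0 to 355 CPM with a median of 34.8, and in the others from 0 to 102 CPM with a median of 0. At least 5 reads were found in 10 of 21 micronucleated cells and in 1 of 14 others, cell 6. The groups overlapped, with 5 micronucleated cells above that cell and 8 micronucleated cells at 0. The sums were 107.9 CPM (101.9 to 114.2) and 7.75 CPM (6.23 to 9.53), and the log2 ratio of 3.64 was 2.83 at equal weight and 3.20 without micronucleated cell 11. Without non-micronucleated cell 6 it was 6.13, so the size of the ratio depended on that cell while the direction did not.

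Acat2, the cytosolic thiolase that starts the pathway (chr17:12942890-12960747, minus strand), ran from 0 to 187 CPM (median 56.8) in micronucleated cells and from 0 to 120.5 CPM (median 15.7) in the others. The groups overlapped, with 4 micronucleated cells above all others and 4 cells at 0 in each group. The sums were 66.3 CPM (61.6 to 71.3) and 26.4 CPM (23.5 to 29.5), and their log2 ratio was 1.30, or 0.95 at equal weight. Its neighbour Acat3 is closely similar in sequence, and how reads that fit both were counted is not given in the sources used here. Hmgcs1 was level between the groups in summed reads only, with sums of 183.7 CPM (175.8 to 191.8) and 192.0 CPM (184.1 to 200.2). Its medians were 150.5 CPM (range 0 to 667) with and 78.5 CPM (range 0 to 515) without micronuclei. Non-micronucleated cell 7 held 24.4% of its reads. Its log2 ratio of -0.06 was 0.34 at equal weight and 0.56 without non-micronucleated cell 7.

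Mvd, the decarboxylase that yields isopentenyl diphosphate, rested on few cells. Its summed level was 25.1 CPM against 9.04, and the log2 ratio was 1.38, with 5 or more reads in 7 micronucleated cells and 1 other. Micronucleated cell 21 held 44.9% of its reads, and the log2 ratio was 0.13 when this cell was left out and 4.58 when it was non-micronucleated cell 1. The farnesyl diphosphate synthase gene Fdps was spread more evenly, at 33.2 against 17.4 CPM (log2 ratio 0.89, between 0.63 and 1.20 over the leave-outs) with 5 reads in 14 of 21 and 6 of 14 cells, although 26.7% of its exon bases are shared with the gene Gm43738. The mevalonate kinase gene Mvk (27.8 against 19.2 CPM) and Idi1 (7.04 against 4.05 CPM) had log2 ratios of 0.51 and 0.67. That of Mvk was 0.24 at equal weight and 0.02 without micronucleated cell 9, and it changed sign in 1 setting (-0.05). Idi1 rested on 78 and 47 reads, with 5 reads in 5 of 21 (23.8%) and 4 of 14 (28.6%) cells.

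Squalene and lanosterol are made by 3 enzymes, all of them higher in sum by less than 2-fold, beside 56.0% of all measured genes higher. Fdft1, which joins farnesyl units into squalene, stood at 169.9 against 108.7 CPM, with a log2 ratio of 0.64 and 1.04 at equal weight, and 18.3% of its exon bases lie opposite those of the protease gene Ctsb. Sqle had 107.9 against 83.4 CPM and a log2 ratio of 0.37 that was -0.13 at equal weight, and Lss had 63.8 against 43.5 CPM and a log2 ratio of 0.54 that was -0.05 without micronucleated cell 13. For Sqle and Lss the highest single cell, cell 6, belonged to the group without micronuclei.

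From lanosterol to cholesterol, 7 of 8 enzymes were higher in sum, beside 56.0% of all measured genes. The median log2 ratio of the 8 was 0.38, beside 0.15. At equal weight 5 of 8 were higher (median 0.29), beside 52.8% (median 0.05). In mean log2 6 of 8 were higher (median 0.18), beside 63.9% (median 0.30). For 3 of the 8, a larger share of micronucleated cells had 5 reads, beside 46.7% of all measured genes, and for 5 a smaller share. Nsdhl, the sterol decarboxylase gene on the X chromosome (chrX:72918557-72958514, plus strand), ran from 0 to 298 CPM (median 17.4) in micronucleated cells and from 0 to 127 CPM (median 0) in the others. It was at 0 in 5 of 21 and 9 of 14 cells, and 2 micronucleated cells exceeded every other cell. Its sums were 41.0 CPM (37.3 to 44.9) and 13.5 CPM (11.5 to 15.8), a log2 ratio of 1.53, which ran from 1.12 to 2.85 over the leave-outs and was 0.94 without 6 cells of few genes or many mitochondrial reads and 0.70 after thinning. Nsdhl thus stayed higher but under 2-fold in those settings.

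Ebp and Hsd17b7 were also at least 2-fold higher. Ebp ran from 0 to 295 CPM (median 36.0) in micronucleated cells and from 0 to 373 CPM (median 30.7) in the others. Its sums were 146.5 CPM (139.5 to 153.8) and 64.9 CPM (60.4 to 69.7), a log2 ratio of 1.16 that was 0.37 at equal weight, so the difference was smaller when cells counted equally. Hsd17b7 had sums of 104.2 and 49.7 CPM, a log2 ratio of 1.05 and 0.57 at equal weight, and 5 reads in 13 of 21 and 6 of 14 cells. For both genes the groups overlapped across nearly the whole range.

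Sc5d, which introduces a double bond late in the pathway, went the other way (chr9:42251595-42264256, minus strand). Its sums were 100.1 CPM (94.3 to 106.2) and 256.4 CPM (247.2 to 265.7), with a log2 ratio of -1.35, between -1.69 and -0.95 over the leave-outs. At equal weight the log2 ratio was -0.36. The highest cell of all, cell 6 at 1167 CPM, was micronucleated. The medians were 86.8 CPM (range 0 to 1167) with and 177.4 CPM (range 0 to 672) without micronuclei. Nearly the same share of cells had 5 reads, 16 of 21 and 11 of 14.

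Msmo1, the sterol enzyme with the highest level per kilobase, was similar in both groups. It ran from 0 to 1472 CPM (median 243) with micronuclei and from 0 to 1922 CPM (median 280.0) without, with 5 reads in 18 of 21 and 13 of 14 cells. The sums of 368.3 CPM (357.1 to 379.7) and 320.5 CPM (310.3 to 331.0) had a log2 ratio of 0.20, or -0.16 at equal weight. Cyp51 (176.0 against 121.9 CPM, log2 ratio 0.53), Dhcr7 (21.0 against 17.7 CPM, 0.23) and the sterol reductase gene Tm7sf2 (24.0 against 23.7 CPM, 0.02, and -0.12 with TMM factors) also differed by less than 2-fold.

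The regulators were divided. Insig1 was lower in micronucleated cells and Insig2, which makes the related anchor of SCAP, was higher. Insig1 (chr5:28071363-28078662, plus strand) ran from 0 to 653 CPM with a median of 153.7 in micronucleated cells and from 0 to 677 CPM with a median of 246.7 in the others. It had 5 reads in 17 of 21 and 13 of 14 cells and was at 0 in 1 cell of each group, and 2 cells without micronuclei lay above every micronucleated cell. The sums were 217.2 CPM (208.6 to 226.0) and 433.5 CPM (421.6 to 445.6), with a log2 ratio of -0.99 that ran from -1.45 to -0.84 over the leave-outs and was -0.71 at equal weight. The ranges of the groups were thus nearly the same, while the medians and sums differed.

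Insig2 was carried by a few cells. Its medians were 8.17 CPM (range 0 to 513) with and 5.90 CPM (range 0 to 193) without micronuclei, and it had 5 reads in 9 of 21 and 5 of 14 cells. Its sums were 113.0 CPM (106.8 to 119.4) and 22.3 CPM (19.7 to 25.2), with a log2 ratio of 2.29 and 0.92 at equal weight. Micronucleated cell 11 held 39.3% of its reads, and without it the log2 ratio was 1.53; after thinning it was 0.94. Per kilobase, Insig1 exceeded Insig2 in 27 of the 31 cells with 5 reads of either gene. Insig1 made up 68.3% of the summed pair per kilobase in micronucleated cells and 95.6% in the others, but its median share per cell was 95.4% and 99.1%. Micronucleated cells 11 and 14 held 593 and 484 of the 1252 Insig2 reads of their group.

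Srebf1, Srebf2 and Scap were low genes. Srebf1 had 36.7 against 21.1 CPM, a log2 ratio of 0.77 and 1.21 at equal weight, with 5 reads in 12 of 21 and 3 of 14 cells; its highest level without micronuclei, 87.5 CPM, was in cell 7. Srebf2 had 19.7 against 17.1 CPM (log2 ratio 0.19) and 5 reads in 10 of 21 and 7 of 14 cells. Per kilobase neither factor was regularly the higher one, with Srebf2 ahead in 12 and Srebf1 in 11 of 23 cells. Scap was lower in sum at 20.6 against 45.3 CPM (log2 ratio -1.10), but non-micronucleated cell 8 held 41.6% of its reads and without that cell the log2 ratio was -0.02.

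Stard4, which shuttles cholesterol between membranes, was found in more of the micronucleated cells. It had 5 reads in 16 of 21 against 6 of 14 cells, medians of 65.5 CPM (range 0 to 199) and 11.05 CPM (range 0 to 292), and sums of 76.9 CPM (71.8 to 82.2) and 36.3 CPM (33.0 to 40.0). The log2 ratio was 1.06, from 0.74 to 1.72 over the leave-outs and 0.74 at equal weight. The highest single cell was without micronuclei. Over the 30 measured genes, 17 had 5 reads in a larger share of micronucleated than of other cells, beside 46.7% of all measured genes.

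Among the fatty acid enzymes, the desaturases were lower in micronucleated cells in sum. Scd1, a stearoyl-CoA desaturase gene (chr19:44394455-44407879, minus strand), ran from 0 to 196.5 CPM (median 63.9) with micronuclei and from 0 to 400.4 CPM (median 23.9) without. Its median was thus higher with micronuclei, while 3 cells without them lay above every micronucleated cell. The sums were 63.0 CPM (58.4 to 67.8) and 105.0 CPM (99.2 to 111.0), a log2 ratio of -0.73, between -1.13 and -0.32 over the leave-outs. Scd2, its neighbour on the chromosome (chr19:44293674-44306864, plus strand), had 209.3 against 269.5 CPM (log2 ratio -0.36, and 0.22 without non-micronucleated cell 4). Scd2 was the main desaturase per kilobase, ahead of Scd1 in 27 of 32 cells, and 13 cells had 5 reads of Scd2 alone while 0 had Scd1 alone.

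Fads1 and Fads2, desaturases of polyunsaturated fatty acids, had the largest summed differences of the 6 measured genes of this role, each resting on 1 cell. Fads1 had medians of 54.0 CPM (range 0 to 133) with and 49.5 CPM (range 0 to 927) without micronuclei, and 5 reads in 13 of 21 and 9 of 14 cells. Its sums of 56.4 and 172.7 CPM gave a log2 ratio of -1.60. Non-micronucleated cell 8 held 50.0% of its reads, and without that cell the log2 ratio was -0.26. Fads2 had 11.7 against 25.2 CPM (log2 ratio -1.04), with 53.7% of its reads in non-micronucleated cell 1, and the log2 ratio was 0.87 without it.

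Of the enzymes before the desaturases, Acly and Fasn were close to level in sum. Acly, which cleaves citrate to acetyl-CoA, stood at 208.3 against 211.2 CPM (log2 ratio -0.02), with 5 reads in 18 of 21 and 10 of 14 cells. Fasn had 163.4 against 204.2 CPM, a log2 ratio of -0.32 that was -0.02 at equal weight and 0.23 without non-micronucleated cell 7. It was the only 1 of the 31 genes with at least 1 read in all 21 micronucleated cells, and it was at 0 in 1 of the 14 others. Acaca, outside the filter, had 80 reads (7.22 CPM, 5.72 to 8.98) against 19 (1.64 CPM, 0.985 to 2.56), with 5 reads in 5 of 21 and 1 of 14 cells, so that it was higher in micronucleated cells (log2 ratio 1.64), on few reads.

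Across the 35 cells the sterol enzymes varied together weakly. No plate or preparation date is named for the cells, and their rank correlation also follows how many genes each library detected, so the values are descriptions. Over 153 pairs of sterol enzymes the median Spearman rho of CPM was 0.21 (range -0.29 to 0.58), beside 0.07 over all pairs of measured genes. Of these pairs 92.2% were above 0, beside 65.5% of all pairs, and 28.1% were at 0.3 or more, beside 10.1%. For the 9 sterol enzymes with 5 reads in at least 20 cells the median was 0.18, beside 0.05 among 3264 such genes. Over the 153 pairs, with the part tied to genes detected removed from the ranks, the median was 0.13, beside 0.006 over all measured genes. Most single pairs were thus weak, and the difference from other genes lay in the number of small positive values.

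The closest pairs were Cyp51 with Scd2 (rho 0.61, both with 5 reads in 29 cells), Pmvk with Ebp (0.58, 10 cells), Mvd with Fads2 (0.55, 6 cells), Cyp51 with Hsd17b7 (0.55, 19 cells), Hmgcs1 with Insig1 (0.54, 26 cells) and Sqle with Msmo1 (0.53, 21 cells). The most negative was Sc5d with Insig2 (-0.42, 11 cells). Against the mean log2(CPM + 1) of the other sterol enzymes, Hsd17b7 (0.59), Idi1 (0.58), Nsdhl (0.57) and Msmo1 (0.55) stood highest. Outside the sterol enzymes Scd2 and Stard4 (both 0.47), Srebf2 (0.44), Fads1 and Fads2 (both 0.39), Insig1 (0.29), Acly (0.28) and Scd1 (0.23) were positive. Scap (0.10), Srebf1 (0.07), Fasn (0.02) and Insig2 (-0.10) were nearer to 0. With the number of genes detected, Srebf2 had a rho of 0.57 and Srebf1 of 0.19, and the part of detection in these values was not tested. Fatty acid enzymes had the same median as the sterol enzymes, 0.21, over 15 pairs. Of these 15 pairs 73.3% were above 0 and 13.3% at 0.3 or more. These shares were nearer to those over all genes than the sterol shares were. The median over the 108 pairs of a sterol with a fatty acid enzyme was 0.17. Of those pairs 79.6% were above 0 and 21.3% at 0.3 or more, between the sterol shares and those over all genes. Positive pairs were thus not limited to the sterol enzymes.

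**Figure D4:**
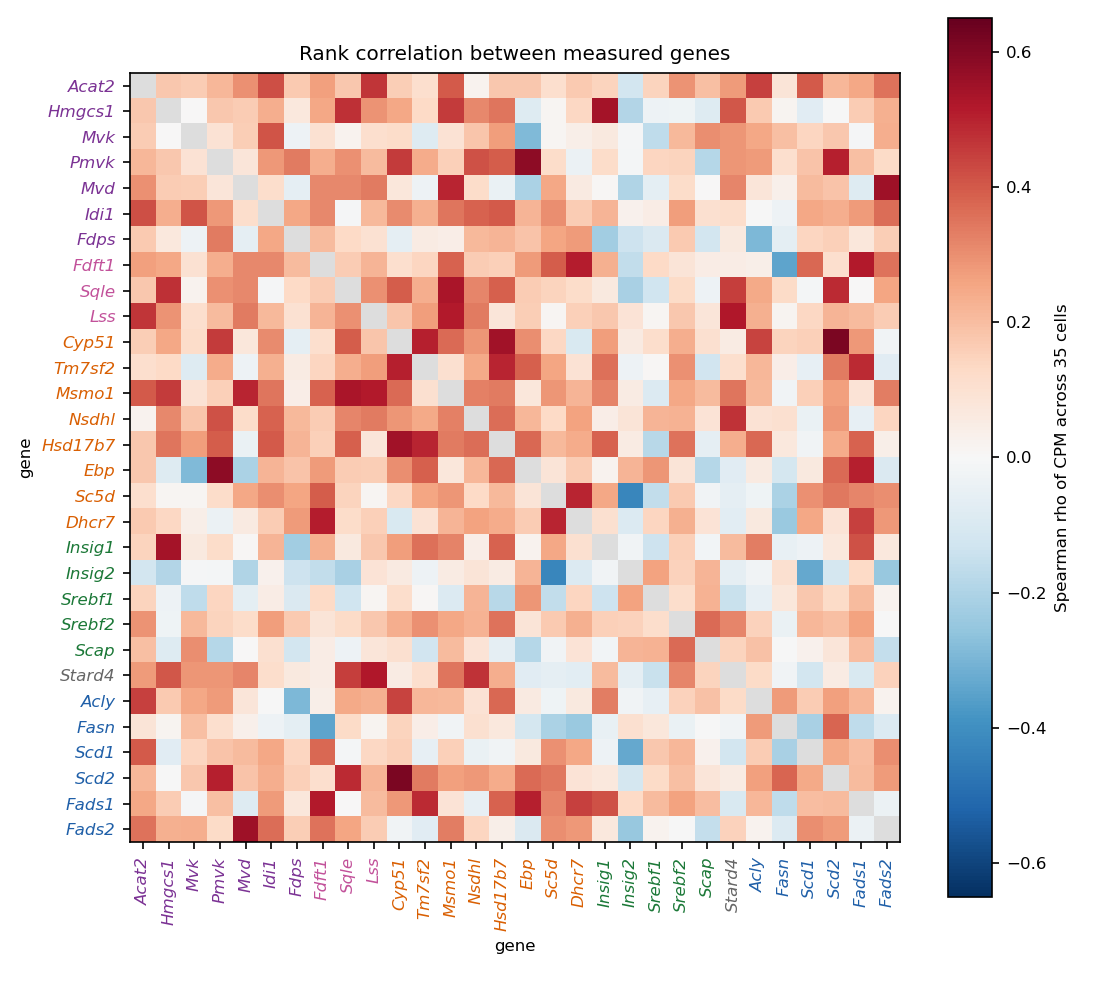
Spearman rank correlation of CPM across the 35 cells for every pair of the 30 measured genes (both axes, grouped and coloured by role; colour scale from blue, negative, to red, positive). Red squares prevail among the sterol enzymes, up to 0.58, with Insig2 and Fasn paler or blue against most of them.

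The summed sterol level and the number of genes detected were only loosely related, while the mean of log2 values followed detection. Over 35 cells the mean log2(CPM + 1) of the sterol enzymes had a Spearman rho of 0.68 with genes detected (Pearson r 0.69, and 0.71 without the 2 cells farthest from the median; rho 0.82 within micronucleated cells and 0.43 within the others). The summed CPM had a rho of 0.22 with genes detected and 0.14 with reads. With the spike-in share the mean log2 had a rho of -0.42 (-0.42 within micronucleated cells, -0.07 within the others) and the summed CPM -0.10. The part of spike-in share in the group values was not tested. The part of detection in the correlations between enzymes was addressed only by removing its ranks, as given above.

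**Figure D5:**
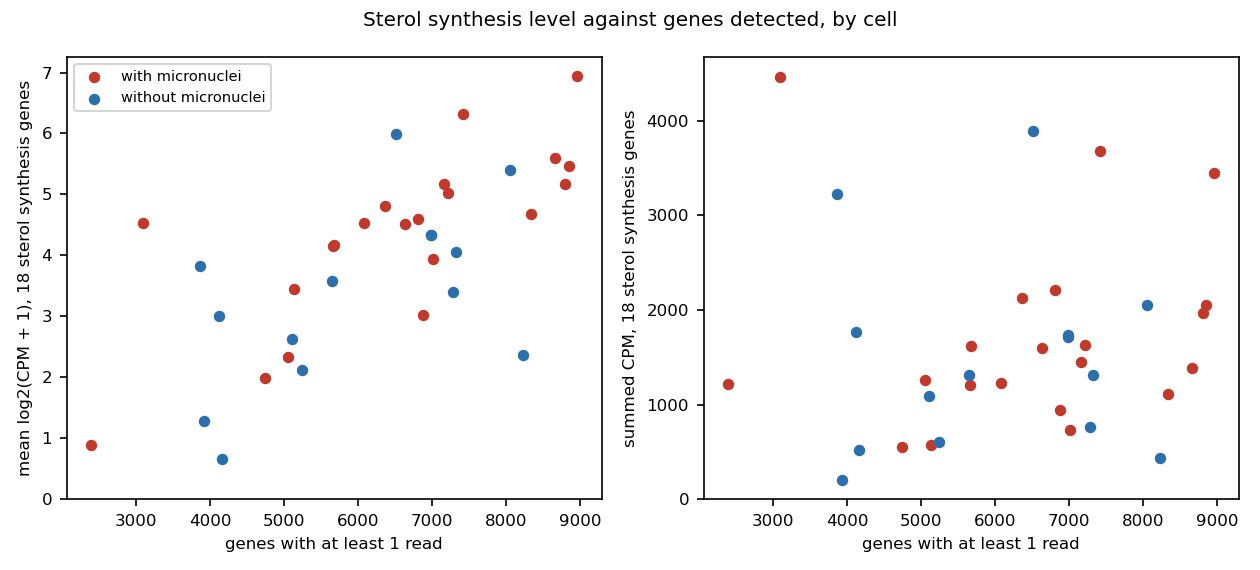
Mean log2(CPM + 1) of the 18 sterol enzymes (left) and their summed CPM (right) against the number of genes with at least 1 read, with 1 point per cell, red with and blue without micronuclei. The left panel climbs with genes detected (rho 0.68), whereas in the right panel (rho 0.22) the highest cell, at 4462 CPM, has 3097 genes detected.

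Genes that act on SREBPs, sterols and fatty acids around these pathways were compared in the same way, where 56.0% of all measured genes were higher. Of 8 measured genes of SREBP cleavage and sterol-regulated degradation 3 were higher and 5 lower (median log2 ratio -0.47). Erlin2, part of the complex that degrades sterol-regulated proteins, had 14.5 against 33.8 CPM (-1.16, and -0.57 at equal weight). Ubxn4, an adaptor of that route, had 275.2 against 130.7 CPM (1.07, and 0.43 at equal weight). In the LXR and efflux list 1 of 3 was higher, and Nr1h2, the oxysterol receptor LXR beta, had 24.4 against 73.2 CPM (-1.55, and -0.99 at equal weight). Of 10 genes of sterol uptake, esterification and trafficking 7 were higher (median 0.63), and 6 at equal weight (median 0.26) and 5 in mean log2 (median -0.01). Npc1, which exports cholesterol from lysosomes, had 23.6 against 7.15 CPM (1.60, and 0.98 at equal weight). The lipoprotein receptor gene Vldlr had 2.62 against 61.9 CPM (-4.12, and -2.04 without non-micronucleated cell 7, which held 78.3% of its reads).

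The fatty acid lists were mixed. Activation and elongation had 6 of 13 genes higher and 7 lower (median -0.43), but 7 of 13 higher at equal weight (median 0.05). Elovl1, an elongase of very long chains, had 152.8 against 353.8 CPM (-1.21, and -0.72 at equal weight). Acsl4, which activates arachidonic acid, had 102.5 against 209.6 CPM (-1.03, and -1.12 at equal weight). Of the isoprenoid branch 5 of 9 were higher (median 0.32), and 4 of 9 at equal weight (median -0.16), while the genes named by rule were lower, Pggt1b, a prenyltransferase subunit, at 4.24 against 21.5 CPM (-2.10, and -0.44 at equal weight) and Nus1, of dolichol synthesis, at 62.1 against 115.7 CPM (-0.89). Of 11 genes of fatty acid oxidation 9 were higher (median 0.54), among them Etfa, which passes electrons from acyl-CoA dehydrogenases, at 134.8 against 45.5 CPM (1.55, and 0.85 at equal weight) and Acadl, such a dehydrogenase, at 79.7 against 48.7 CPM (0.70). At equal weight 9 of the 11 were higher (median 0.38). These counts and medians stand beside 56.0% higher and a median of 0.15 over all measured genes, and 52.8% and 0.05 at equal weight.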

How the data were processed

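The authors deposited whole-number read counts per gene and spike-in for 35 cells; the aligner was STAR and the build GRCm38.p5, per the submitters' processing notes. The sources used here do not give versions or the strand setting, so reads of genes that overlap on opposite strands cannot be told apart. All 35 cells were used; no doublet caller was run, 0 of 595 pairs of cells were identical, and 0 columns were left unused. Spike-ins (up to 7.39% of reads) stayed out of the totals. Counts were summed per group (11084425 and 11612303 reads) and scaled to CPM, and 1 CPM was added before log2. No test across genes was made, since each group is 1 sample.

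The genes and lists were chosen with earlier results of these data known. By rule, all listed genes are described; in full, those with the 6 highest CPM per kilobase and, 3 in each direction, those whose log2 ratio kept 1 sign over summed reads, equal weights and every leave-out and was largest at its smallest, and up to 2 genes of each other list by that value; Insig2, Mvd, Hsd17b7, Stard4, Fads1 and Fads2 were added after their values were seen, as was leaving out the 4 cells with macrophage markers. Of other measured genes with 5 reads in 20 cells, the 6 closest to the sterol mean are named. Alternatives were equal weights, mean log2, TMM and scran factors, 0.1 or 5 CPM added, other filters (none, or 20 CPM and 5 reads in 10 cells), thinning, totals without mitochondrial reads, and leaving out cells. Coordinates are from GENCODE annotation of GRCm38. The tools were R 4.3.3 with edgeR 4.0.16 and scran 1.30.0, and Python 3.11.15 with scipy 1.17.1, pandas 2.3.3, numpy 2.4.6 and matplotlib 3.10.9; the ratio and correlation code was tested on simulated data.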

Additional observations from a re-analysis of the deposited data

How the results depend on the processing

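No paired analysis was possible because the replicate numbers were given in accession order and tie no cell to a shared culture, animal or day. The sterol median log2 ratio (0.59) stayed positive in every setting: it was 0.35 at equal weight and 1.07 in mean log2, and ran from 0.41 (without non-micronucleated cell 7) to 0.92 (without non-micronucleated cell 6) when 1 cell was left out. TMM and scran factors, which moved the median of all measured genes from 0.15 to 0.01 and 0.03, gave sterol medians of 0.45 and 0.46. With each, 15 of 18 sterol enzymes were higher, beside 50.4% (TMM) and 51% (scran) of all measured genes. The fatty acid median (-0.55) was 0.094 in mean log2, -0.36 with no filter, -0.36 with the stricter filter and -0.33 without 6 cells of few genes or many mitochondrial reads, and ran from -0.82 to -0.27 over the leave-outs (without non-micronucleated cells 7 and 1). Genes at least 2-fold higher (8) numbered 5 at equal weight and 6 to 11 over the leave-outs. Genes at least 2-fold lower (4) numbered 1 at equal weight, 0 in mean log2, 2 with 5 CPM added, 2 after thinning, and 2 (without micronucleated cell 7 or 13 or non-micronucleated cell 8) to 5 over the leave-outs. The share of all measured genes past 2-fold is given above for summed reads over all cells only. The 2-fold counts in other settings thus stand without a matching share and cannot be set against the transcriptome. The sterol rho (0.21) was 0.13 with the ranks of genes detected removed and 0.18 to 0.23 over the leave-outs. Of the 12 genes at least 2-fold apart, signs changed in some setting for 2: Fads1, at 0.051 in mean log2, and Fads2, at 0.75 in mean log2, 0.33 without the 6 cells and -1.52 to 0.87 over the leave-outs, the last without non-micronucleated cell 1; the cause was not tested. Of the 18 genes under 2-fold, 12 changed sign in some setting, among them Acly (-0.46 to 0.61), Hmgcs1 (-0.37 to 1.07), Dhcr7 (-0.58 to 0.66) and Srebf2 (-0.21 to 0.66). At equal weight 20 of 30 single-gene ratios moved by over 1.5 times or changed sign, and after thinning 21 of 29.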

Other observations

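Of 3249 other genes with at least 5 reads in 20 cells, those whose levels across the 35 cells were closest to the mean log2(CPM + 1) of the sterol enzymes were Mrpl2, a mitochondrial ribosomal protein gene (Spearman rho 0.65), the ribonuclease gene Rnase4 (0.64), Txndc15 (0.62), the deubiquitinase gene Brcc3 (0.60), the death receptor gene Tnfrsf10b (0.59) and the purine phosphorylase gene Pnp (0.59). Their own rho with the number of genes detected ran from 0.37 (Brcc3) to 0.66 (Txndc15), beside 0.68 for the sterol mean. These values describe 35 cells for which no plate or preparation date is named, and the part of detection in them was not tested.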
